A study of Mus musculus with 6 samples.

Results

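G protein-coupled receptors other than chemokine receptors were examined in cultured primary sinusoidal endothelial cells (LSECs) of the mouse liver, with hydrostatic pressure as the stimulus. The genes were taken by symbol: the numbered Gpr genes and the adhesion (Adgr), nucleotide (P2ry), lysophosphatidic acid (Lpar), prostaglandin E2 (Ptger), adenosine (Ador), adrenergic (Adra and Adrb), histamine (Hrh), protease-activated (F2r) and serotonin (Htr) genes. This gave 155 of the 24421 symbols listed. Of these, 31 had no count in any library, 61 had some counts but too few for a test, and 63 were tested. The symbol rule also took in 5 genes that are not receptors of this superfamily: the receptor kinases Adrbk1 and Adrbk2, the ion channels Htr3a and Htr3b, and the pseudogene Gpr137b-ps. It further took in 8 multi-pass membrane proteins whose membership of the superfamily is unsettled (such as Gpr89, Gpr107 and Gpr137).

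LSECs are the fenestrated endothelial cells that line the liver sinusoids. Both groups of cells came from livers of genotype "wild" and were picked by beads that bind CD146, a protein of the endothelial surface. They were plated overnight on collagen I and deprived of serum for 6 h. The 3 pressure samples were then held for 8 h in a chamber whose absolute pressure cycled between 101 and 135 kPa at 0.01 Hz, and the other 3 samples were controls. How the controls were kept during those 8 h is not labelled, so a difference in handling or culture time cannot be told apart from pressure. All 6 samples carry the same batch label. Nothing in the labels tells if a group's 3 samples were separate cultures or animals. The p-values therefore reflect only how these samples spread, and that spread may be technical.

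G protein-coupled receptors span the membrane and, when a ligand binds, activate heterotrimeric G proteins. Gs raises cyclic AMP through adenylyl cyclase, Gi lowers it, Gq activates phospholipase C and calcium release, and G12 and G13 act on the cytoskeleton through exchange factors. Receptor kinases and arrestins then switch the receptor off. In endothelium, receptors for nucleotides, lysophosphatidic acid, thrombin, protons and amines are known to control vascular tone, permeability and leukocyte adhesion.

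Library totals lay between 12922959 (pressure replicate 3) and 18655749 counts (control replicate 1). Pressure replicate 3 was the least like its group, with Pearson's r of log2 CPM (counts scaled to library size) across genes of 0.9888 and 0.9913, against 0.9957 between the other pressure libraries. Results whose call turns on it are given with and without it. Endothelial markers summed to 6652 to 7421 CPM in pressure libraries and 8003 to 8356 CPM in control libraries. All 14 of these markers were tested and none was at 0; 1 was higher and 8 were lower under pressure, with a median log2 fold change of -0.18. Macrophage markers were as plentiful, with 13 of 14 listed, all 13 tested, and sums of 6678 to 7201 CPM under pressure and 7085 to 7663 CPM in controls. Of those 13, 3 were higher, 2 were lower and none was at 0. Hepatocyte markers summed to 14.4 to 17.8 CPM under pressure and 7.27 to 10.4 CPM in controls, with Tat at 0.

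Levels below are CPM scaled by TMM factors (edgeR's composition-adjusted library sizes), with the SD over n = 3 samples per group. Each log2 fold change sets pressure over control, ± its standard error, and comes from edgeR's quasi-likelihood test over all 12892 genes that had enough counts, and a gene is called when its adjusted p is below 0.05. Over all tested genes 68.8% were called, 33.7% higher and 35.1% lower under pressure, and 23.3% were called with at least a 2-fold change.

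Among the 63 tested genes of the set, 17 were higher under pressure, 21 were lower and 25 passed in neither direction. The called share was 60.32%, below the 68.8% of all genes. A change of at least 2-fold was called for 21 genes (33.33%, against 23.3% of all genes), 13 higher and 8 lower. The 3 pressure values lay entirely above or below the 3 control values for 38 genes (60.32%), and for 71.9% of all genes. The median log2 fold change was -0.03 over the set and -0.01 over all genes, and the median absolute log2 fold change was 0.58 and 0.54. Without the kinases, the pseudogene and the multi-pass proteins, 17 of 53 tested receptors were higher and 14 lower. The split between directions depended on scaling. With library totals only, 14 genes were higher and 30 lower, so that higher genes made up 31.8% of the calls, against 44.7% with TMM factors. That setting moved the median of all genes by -0.21, and 14 higher and 21 lower genes were called under all 4 scalings tried.

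**Figure D1:**
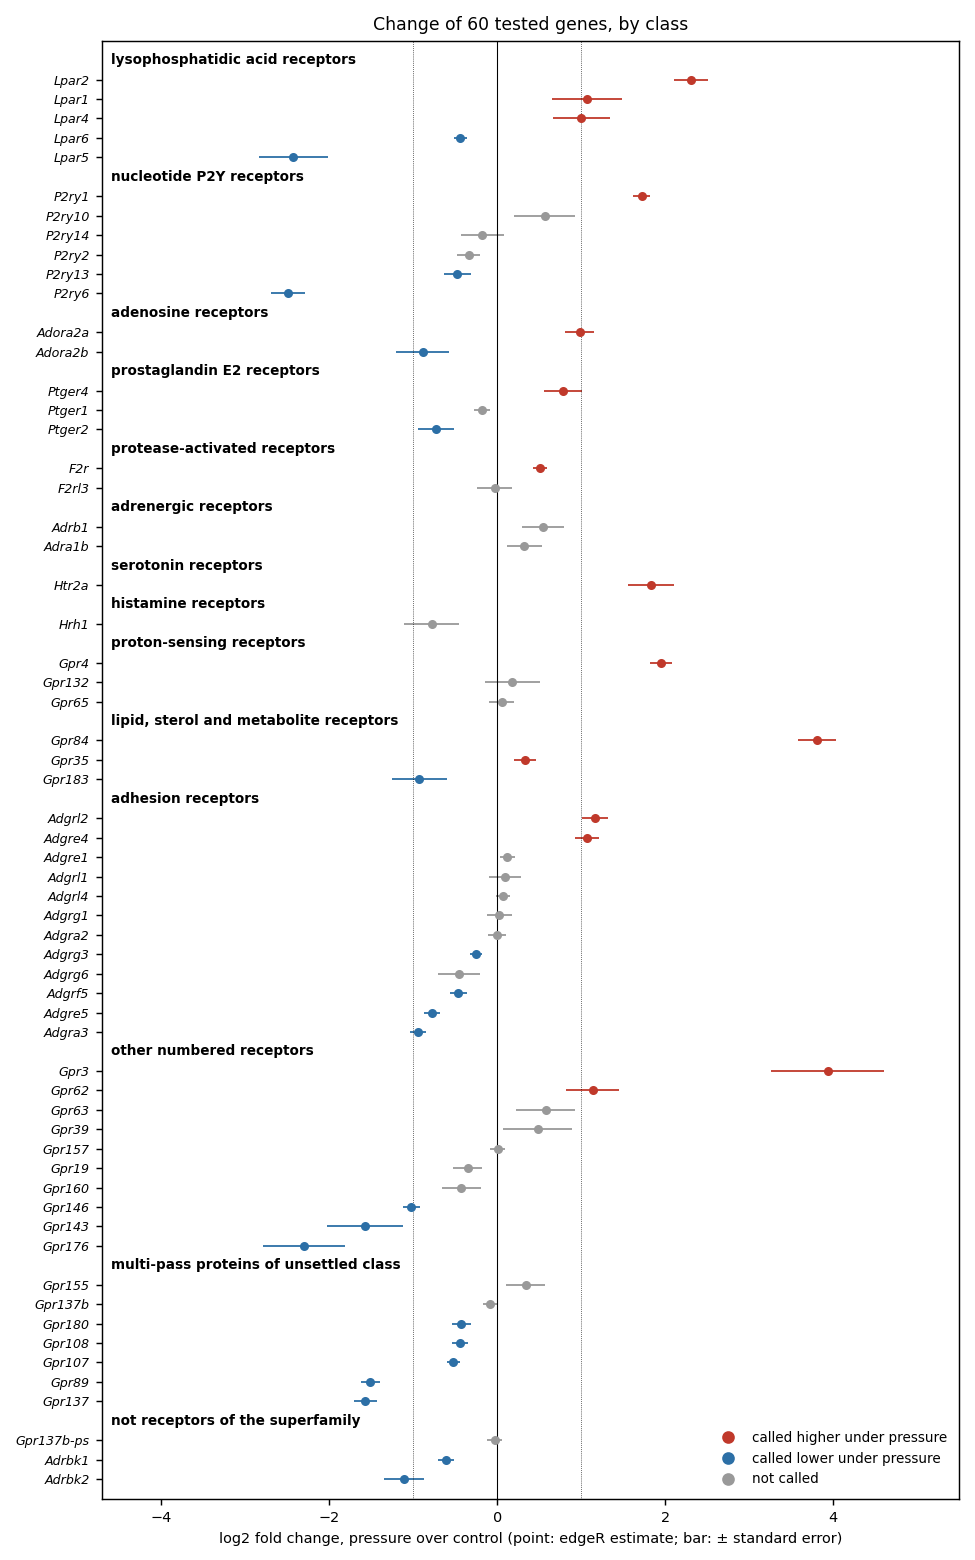
Log2 fold change, pressure over control, of 60 of the 63 tested genes by ligand class or kind of protein; points are edgeR estimates, bars are ± 1 standard error, red points are called higher, blue points lower and grey points neither, and dotted lines mark a 2-fold change. Of the genes drawn, Gpr3 (3.93) and Gpr84 (3.81) lie farthest to the right and P2ry6 (-2.49) farthest to the left, and the lysophosphatidic acid, nucleotide, adenosine, prostaglandin E2 and adhesion classes each have receptors called in both directions.

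Per exonic kilobase, the scale on which levels of different genes can be compared, adhesion receptors led. Adgrl4 (also called ELTD1), an adhesion receptor of endothelium, had 163 ± 16.8 CPM per kb under pressure and 156 ± 7.02 CPM per kb in controls. Next came Adgrf5, an adhesion receptor of endothelium and lung epithelium, at 58.8 ± 7.71 CPM per kb under pressure and 81.0 ± 5.90 CPM per kb in controls. Adgre1, which encodes the macrophage antigen F4/80, had 56.4 ± 5.57 CPM per kb under pressure and 51.9 ± 2.90 CPM per kb in controls. Under pressure Adgrf5 and Adgre1 differed by less than their SDs, whereas in controls Adgrf5 was above Adgre1 by more than both SDs. Gpr137b-ps and Gpr137b, near-identical copies whose reads cannot be assigned with certainty, followed under pressure at 39.5 and 32.5 CPM per kb. Lpar6 had 32.4 ± 2.37 CPM per kb under pressure and 43.95 ± 1.84 CPM per kb in controls. F2r had 30.3 ± 2.53 and 21.2 ± 0.880 CPM per kb in pressure and control samples. In bulk RNA, a change in the number of cells of a type and a change in RNA per cell cannot be told apart. This applies to Adgre1 and the other receptors below that macrophages also express, and to endothelial receptors such as Adgrf5. It applies as well to receptors of any other cell type present. The part of the lower endothelial marker sum in the receptor results was not tested. Nor was that of the hepatocyte, stellate and bile duct marker sums, which were higher under pressure. Stellate and smooth muscle markers summed to 182.4 to 197.2 CPM under pressure and 168.5 to 177.4 CPM in controls. Yet of 9 tested, only 1 was called higher and 3 were lower, with a median log2 fold change of -0.28. Of 4 tested bile duct markers, 3 were higher and 0 lower.

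Some receptors changed place in this order. Gpr4 ranked 11 of the 63 genes under pressure and 21 in controls, P2ry1 14 under pressure and 23 in controls, and Gpr84 19 under pressure and 52 in controls. P2ry6 moved the other way, ranking 40 under pressure and 22 in controls.

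The promoter windows of 5 receptors that rose are printed next. These are the largest rises with a level of at least 1 CPM that have an entry in the RefSeq table used here. They were chosen by size of rise, and the fall of P2ry6 (-2.49) was larger than most of them. The window of Lpar6, the most abundant receptor per kilobase outside the adhesion class that fell, is added. Each window runs from 250 bases before to 50 after the annotated start (GRCm38.p6), 5′ to 3′ in the direction of the gene, and capitals mark matches, on either strand, to 4 motifs: TGACGTCA (the cyclic AMP response element), TGANTCA (AP-1), CACGTG (E-box) and GGGCGG (GC box). The windows are chr15:103310389-103310688 (minus strand) for Gpr84, chr8:69822315-69822614 (plus) for Lpar2, chr7:19212288-19212587 (plus) for Gpr4, chr14:74640624-74640923 (plus) for Htr2a, chr3:61002535-61002834 (plus) for P2ry1 and chr14:73237641-73237940 (plus) for Lpar6.
Gpr84: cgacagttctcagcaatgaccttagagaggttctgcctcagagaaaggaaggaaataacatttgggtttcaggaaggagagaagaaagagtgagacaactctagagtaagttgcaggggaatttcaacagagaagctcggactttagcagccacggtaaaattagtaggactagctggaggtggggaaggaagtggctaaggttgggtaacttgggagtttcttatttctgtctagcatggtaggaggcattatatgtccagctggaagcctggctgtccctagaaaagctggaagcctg
Lpar2: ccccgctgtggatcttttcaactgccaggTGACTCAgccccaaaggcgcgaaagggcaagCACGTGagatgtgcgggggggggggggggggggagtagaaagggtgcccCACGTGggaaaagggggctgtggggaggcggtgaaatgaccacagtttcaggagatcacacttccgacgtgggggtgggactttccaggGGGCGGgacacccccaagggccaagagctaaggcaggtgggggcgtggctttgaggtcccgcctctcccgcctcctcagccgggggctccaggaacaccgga
Gpr4: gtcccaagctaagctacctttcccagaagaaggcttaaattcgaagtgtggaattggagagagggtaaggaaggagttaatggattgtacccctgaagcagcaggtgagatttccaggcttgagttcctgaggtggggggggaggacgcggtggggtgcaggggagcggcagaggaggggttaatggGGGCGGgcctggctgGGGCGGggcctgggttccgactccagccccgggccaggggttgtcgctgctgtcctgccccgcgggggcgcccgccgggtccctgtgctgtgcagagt
Htr2a: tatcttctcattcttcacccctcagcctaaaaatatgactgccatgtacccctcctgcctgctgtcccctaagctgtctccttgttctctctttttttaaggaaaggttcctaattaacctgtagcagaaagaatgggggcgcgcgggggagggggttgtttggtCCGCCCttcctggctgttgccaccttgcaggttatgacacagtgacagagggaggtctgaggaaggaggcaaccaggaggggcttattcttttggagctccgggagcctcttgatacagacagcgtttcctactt
P2ry1: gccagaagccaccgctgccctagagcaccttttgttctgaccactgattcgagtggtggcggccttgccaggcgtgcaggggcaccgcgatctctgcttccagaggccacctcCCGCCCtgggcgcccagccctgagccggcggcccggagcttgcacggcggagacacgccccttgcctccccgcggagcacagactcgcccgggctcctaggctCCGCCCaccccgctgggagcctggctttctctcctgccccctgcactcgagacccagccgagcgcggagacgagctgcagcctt
Lpar6: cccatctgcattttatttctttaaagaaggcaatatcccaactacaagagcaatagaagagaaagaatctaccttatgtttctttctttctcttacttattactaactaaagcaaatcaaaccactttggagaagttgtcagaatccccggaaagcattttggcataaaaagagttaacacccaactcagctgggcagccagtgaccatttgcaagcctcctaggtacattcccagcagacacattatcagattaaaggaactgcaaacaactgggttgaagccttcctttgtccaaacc
No window here held TGACGTCA, and in none did matches to different motifs overlap. Lpar2 held 1 AP-1 match starting 221 bases before the start site, 2 E-box matches at 190 and 141 bases before it and 1 GC box at 52. Gpr4 held GC boxes at 63 and 48 bases before the start, P2ry1 at 137 and 34, and Htr2a at 85, while the Gpr84 and Lpar6 windows held none of the 4 motifs. Over the 17 windows of 14 genes that rose, GGGCGG was found in 11 (64.7%) and TGANTCA in 4 (23.5%). Over the 23 windows of 16 genes that fell, they were found in 9 (39.1%) and 1 (4.35%). The windows of genes called in neither direction had TGANTCA in 7 of 34 (20.6%) and GGGCGG in 14 (41.2%). In all 32851 windows of the table, 35.7% held GGGCGG, 7.81% TGANTCA, 7.15% CACGTG and 1.79% TGACGTCA. A match describes the letters of a window and shows no binding.

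All 5 tested receptors for lysophosphatidic acid (LPA), a serum and platelet lipid that acts through Gi, Gq and G12/G13, were called, 3 higher and 2 lower. The called share of all tested genes was 68.8%. Lpar2 had 8.22, 7.29 and 5.73 CPM in the pressure samples, against 1.199, 1.55 and 1.59 CPM in the controls. Every pressure value was more than the highest control value, and the log2 fold change was 2.31 ± 0.20 (edgeR adjusted p = 3.77e-06). Lpar2 spans chromosome 8 from 69822429 to 69831102 (GRCm38), a protein-coding gene. Lpar4, a receptor related in sequence to the nucleotide receptors, had 3.55, 3.52 and 2.46 CPM under pressure and 1.95, 0.693 and 2.25 CPM in controls. The groups did not overlap, but the lowest pressure value was close to the highest control value (log2 fold change 1.00 ± 0.34, edgeR adjusted p = 0.0221). Lpar1 had 1.37, 0.912 and 2.13 CPM under pressure and 0.350, 0.747 and 0.991 CPM in controls, which overlap (1.07 ± 0.42, edgeR adjusted p = 0.0398).

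The 2 LPA receptors that fell stood at the top and the bottom of the tested ones in level per kilobase under pressure. Lpar6, which couples to G12/G13, had 160, 180 and 184 CPM under pressure, against 226, 240 and 246 CPM in controls. All pressure samples lay below all controls, by a log2 fold change of -0.44 ± 0.08 (edgeR adjusted p = 5.35e-04). Lpar5 was near the detection limit, with 0.187, 0.304 and 0.0819 CPM under pressure and 1.25, 1.07 and 0.991 CPM in controls (-2.42 ± 0.41, edgeR adjusted p = 3.65e-04). Lpar3 had 4 counts in 1 pressure library and none in the other libraries. The calls of Lpar1 and Lpar4 were fragile: Lpar4 was not called without control replicate 2 (log2 fold change 0.62, edgeR adjusted p = 0.0533) or without pressure replicate 1 or 2 (0.0606 and 0.0751). Lpar1 was not called without control replicate 1 or 2 (edgeR adjusted p = 0.157 and 0.072) or pressure replicate 1 or 3 (0.0712 and 0.0909). With library totals only, both missed the threshold (edgeR adjusted p = 0.0575 for Lpar4 and 0.0887 for Lpar1), and Lpar1 also did with upper-quartile factors (0.0637).

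Genes that handle LPA were taken from a list of 11 symbols, of which 8 are listed and 7 were tested. Of these, 4 were higher and 1 lower, against 33.7% higher and 35.1% lower over all tested genes. Their median log2 fold change was 0.50 (all genes -0.01). Ppap2b, a lipid phosphate phosphatase that degrades LPA outside the cell, averaged 623 ± 97.0 CPM under pressure and 371 ± 18.8 CPM in controls (0.75 ± 0.11, edgeR adjusted p = 1.07e-04). Ppap2a, of the same family, rose by 0.51 ± 0.08 (2.02e-04) and Agk, a mitochondrial acylglycerol kinase, fell by 0.75 (4.20e-05). Enpp2, which encodes the LPA-producing enzyme autotaxin, was not called (log2 fold change 0.07).

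**Figure D2:**
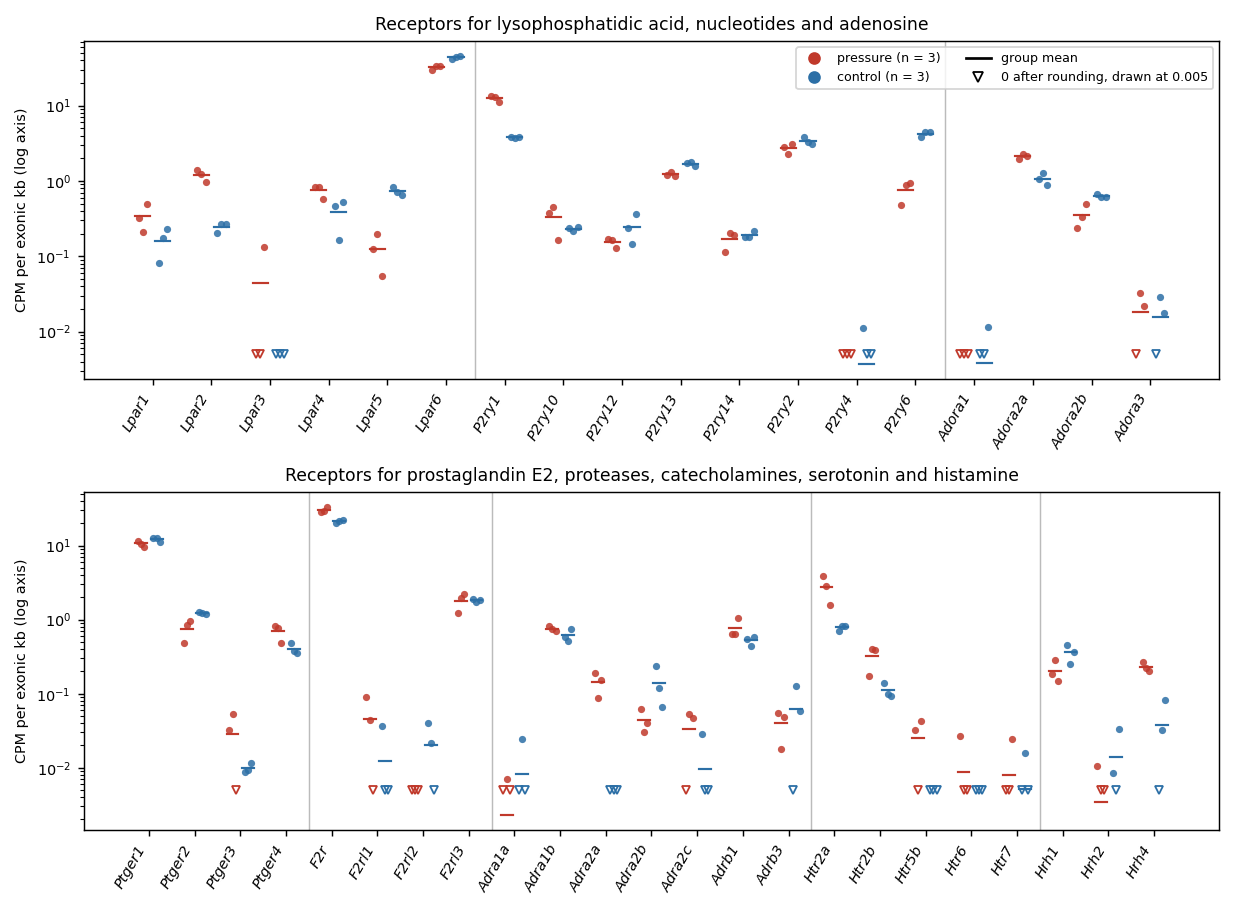
Level of detected receptors for lysophosphatidic acid, nucleotides, adenosine, prostaglandin E2, proteases, catecholamines, serotonin and histamine, in CPM per exonic kilobase on a log axis; each point is 1 sample (pressure left in red, control right in blue), bars are group means and triangles are samples at 0 counts after rounding. Lpar2 and P2ry1 stand clear of their controls upward and P2ry6 and Lpar5 downward, while Lpar6 and F2r, the most abundant of the genes shown, differ by less than 1 log2 unit.

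Of 6 tested nucleotide receptors, 1 was higher, 2 were lower and 3 passed in neither direction. P2ry1, a Gq-coupled receptor for ADP, had 57.0, 55.9 and 48.1 CPM under pressure, against 16.7, 15.8 and 16.4 CPM in controls. The groups were far apart and each was tight, with a log2 fold change of 1.72 ± 0.10 (edgeR adjusted p = 2.71e-07). P2ry6, a Gq-coupled receptor for UDP, showed the opposite pattern with 1.37, 2.55 and 2.70 CPM under pressure and 11.1, 13.01 and 12.8 CPM in controls. Its highest pressure value was well under its lowest control value (-2.49 ± 0.20, edgeR adjusted p = 2.36e-06), the largest fall among the 63 genes. P2ry1 lies on chromosome 3 from 61002795 to 61008982 and P2ry6 on chromosome 7 from 100937630 to 100974649 (GRCm38), both protein-coding.

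P2ry13, a Gi-coupled ADP receptor, had 3.05, 3.28 and 2.95 CPM under pressure and 4.45, 4.48 and 3.96 CPM in controls (-0.47 ± 0.16, edgeR adjusted p = 0.0202). The groups did not overlap, but the gene was not called without control replicate 1 or 2 (edgeR adjusted p = 0.0678 and 0.0673) or by DESeq2 (0.0802). P2ry2, which responds to ATP and UTP, had 11.0, 8.94 and 12.1 CPM under pressure and 14.99, 13.1 and 12.2 CPM in controls. This was a log2 difference of -0.34 ± 0.14 that just missed the threshold (edgeR adjusted p = 0.0505) and passed without pressure replicate 3 (-0.43, 0.00466), with upper-quartile factors (-0.45, 0.018), with library totals only (-0.55, 0.00516), by limma-voom (0.046) and without the low-count filter (0.0363). P2ry14, a receptor for UDP-glucose, and P2ry10, a receptor for lysophosphatidylserine, were not called (log2 fold change -0.18 and 0.56), though P2ry10 was without pressure replicate 3 (0.84, edgeR adjusted p = 0.0364). P2ry12, the platelet ADP receptor, had the most counts among genes below the filter, 7, 7 and 4 under pressure and 12, 7 and 14 in controls.

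Enzymes and transporters that handle extracellular nucleotides and adenosine were lower in 8 of 11 tested genes and higher in 2. Their median log2 fold change was -0.66, against -0.01 for all tested genes, of which 35.1% were called lower. The ectonucleotidase Entpd1 (CD39), which degrades ATP and ADP, averaged 28.1 ± 2.62 CPM under pressure and 51.3 ± 2.87 CPM in controls (-0.87 ± 0.10, edgeR adjusted p = 1.92e-05). Enpp1, another nucleotide-cleaving ectoenzyme, fell by 1.43 and Dpp4, which binds adenosine deaminase in humans, by 0.79. Nt5e (CD73), which makes adenosine, was not called (0.16).

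The 2 adenosine receptors with enough counts, both coupled to Gs, moved apart. Adora2a had 5.92, 7.05 and 6.63 CPM under pressure and 3.25, 3.89 and 2.71 CPM in controls. No value overlapped, with a log2 fold change of 0.98 ± 0.17 (edgeR adjusted p = 4.11e-04). Adora2b had 0.436, 0.608 and 0.901 CPM under pressure and 1.25, 1.12 and 1.12 CPM in controls, again without overlap (-0.88 ± 0.32, edgeR adjusted p = 0.0277). At these low counts the call of Adora2b was lost in DESeq2 (adjusted p = 0.103) and without any one of control replicates 1, 2 and 3 or pressure replicates 1 and 2 (edgeR adjusted p = 0.0863, 0.0584, 0.0577, 0.116 and 0.0808). Adora1 and Adora3 were barely detected.

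Prostaglandin E2 receptors were similarly divided, with 1 higher, 1 lower and 1 not called of 3 tested. Ptger4, which couples to Gs, had 5.48, 5.17 and 3.19 CPM under pressure and 3.20, 2.51 and 2.38 CPM in controls. The third pressure sample fell at the level of the highest control, and the log2 fold change was 0.79 ± 0.23 (edgeR adjusted p = 0.00952). Ptger2, also Gs-coupled, had 2.49, 4.44 and 4.91 CPM under pressure and 6.64, 6.45 and 6.28 CPM in controls. All its pressure values were below all controls (-0.73 ± 0.21, edgeR adjusted p = 0.0105), and without pressure replicate 1 the difference was -0.47 (0.0199). Ptger1, the most abundant of the class per kilobase, had 63.9, 58.4 and 53.0 CPM under pressure and 68.5, 69.3 and 60.6 CPM in controls, with overlap (-0.18 ± 0.09, edgeR adjusted p = 0.113). It passed as lower without pressure replicate 1 (-0.25, 0.048), with upper-quartile factors (-0.29, 0.0143) and with library totals only (-0.39, 0.00234).

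In the list of prostaglandin E2 handling genes, 2 of 9 tested were higher and 3 lower (median -0.03). The shares of all tested genes were 33.7% higher and 35.1% lower. The phospholipase Pla2g4a, which releases arachidonic acid, averaged 9.05 ± 0.719 CPM under pressure and 30.9 ± 1.33 CPM in controls (-1.77 ± 0.10, edgeR adjusted p = 3.29e-07). Hpgd, which inactivates prostaglandins, fell by 1.55 (1.09e-06), and Ptgs1, cyclooxygenase 1, rose by 1.09 ± 0.09 (3.17e-06).

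F2r, the thrombin receptor PAR1, was the most abundant receptor per kilobase among those for proteases. It had 94.8, 97.7 and 111 CPM under pressure and 67.5, 71.5 and 73.2 CPM in controls. The groups did not overlap, with a log2 fold change of 0.51 ± 0.08 (edgeR adjusted p = 3.05e-04). F2rl3 (PAR4), another thrombin receptor, had 2.49, 3.89 and 4.42 CPM under pressure and 3.80, 3.41 and 3.70 CPM in controls, with a log2 fold change of -0.03 ± 0.21. F2rl1 and F2rl2 had 8 and 3 counts over the 6 libraries. Of 9 thrombin pathway genes, only 3 were tested and all 3 were higher, as were 33.7% of all tested genes. Thbd (thrombomodulin), which captures thrombin, rose by 2.41 ± 0.16 (edgeR adjusted p = 6.21e-07), Procr (the endothelial protein C receptor) by 0.99 ± 0.10 (7.57e-06) and F3 (tissue factor) by 0.62 ± 0.19 (0.0117).

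Receptors for amines were sparse. Of 9 adrenergic receptors listed, 3 were tested. Adrb1, the Gs-coupled beta-1 receptor, had 2.18, 2.19 and 3.52 CPM under pressure and 1.85, 1.49 and 1.98 CPM in controls, without overlap but not called (0.54 ± 0.25, edgeR adjusted p = 0.0731). Adra1b, a Gq-coupled alpha-1 receptor, was not called either (0.32 ± 0.21).

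Htr2a, the Gq-coupled serotonin 2A receptor, was the single tested serotonin receptor of 12 listed. It had 21.7, 15.8 and 8.76 CPM under pressure, against 3.997, 4.64 and 4.56 CPM in controls. The third pressure sample was the lowest of its group but still above all controls (1.83 ± 0.28, edgeR adjusted p = 1.66e-04). Hrh1, the Gq-coupled histamine H1 receptor, had 0.810, 1.28 and 0.655 CPM under pressure and 2.05, 1.12 and 1.65 CPM in controls, with overlap. It was not called (-0.78 ± 0.33, edgeR adjusted p = 0.0562), but was without pressure replicate 2 (-1.11, 0.0306) or control replicate 2 (-0.996, 0.0262), with upper-quartile factors (-0.90, 0.0299), with library totals only (-0.99, 0.0196) and without the low-count filter (0.0488). Of the 11 amine handling genes 3 were tested. Hdc, which makes histamine, fell by 1.47 (edgeR adjusted p = 5.17e-06) and the amine oxidase Maoa rose by 1.11 ± 0.10 (5.93e-06).

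Among the proton-sensing receptors, Gpr4 was higher, while Gpr65 and Gpr132 were not called. Gpr4, which signals acid to endothelium, had 72.1, 58.5 and 51.1 CPM under pressure, against 16.4, 14.6 and 16.2 CPM in controls. Its lowest pressure value was more than 3 times its highest control value, and the log2 fold change was 1.95 ± 0.13 (edgeR adjusted p = 6.85e-07). The gene lies on chromosome 7 from 19212538 to 19224174 and is protein-coding. Gpr65, known from immune cells, had 6.73, 8.21 and 9.42 CPM under pressure and 7.89, 8.48 and 6.87 CPM in controls. It differed by less than the spread (0.05 ± 0.15). Gpr132 likewise overlapped (0.18 ± 0.33).

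Receptors for lipids, sterols and metabolites had 3 tested genes. Gpr84, a receptor for medium-chain fatty acids that macrophages and neutrophils induce on activation, had 6.48, 7.66 and 8.92 CPM under pressure and 0.600, 0.480 and 0.529 CPM in controls. The groups were widely separated (3.81 ± 0.23, edgeR adjusted p = 3.31e-07). Of the 13 tested macrophage markers, 3 were higher, 2 lower and 8 not called. Their log2 fold changes ran from -0.57 to 2.46, with a median of -0.03. The largest rise was that of Cd14, a lipopolysaccharide co-receptor (2.46 ± 0.15). Clec4f, Timd4 and C1qa, markers of Kupffer cells and macrophages, were not called (0.08, -0.01 and -0.03). Neutrophil markers summed to 4.86 to 6.47 CPM under pressure and 9.45 to 11.3 CPM in controls, with S100a9, Retnlg and Elane at 0. Of 7 listed, 2 were tested, with 1 lower (-1.08) and 1 not called (0.43). The part of macrophages in the rise of Gpr84, and in the changes of other receptors they express, was not tested. Gpr183, an oxysterol receptor of immune cells, had 0.498, 0.365 and 0.409 CPM under pressure and 0.849, 0.853 and 0.727 CPM in controls. It was called lower (-0.93 ± 0.33, edgeR adjusted p = 0.0273), but not without control replicate 1 or 2 (0.0776 and 0.0771), without pressure replicate 2 or 3 (0.0965 and 0.0689), in a fit of all listed genes with no filter (0.061), with the replicate number as a block (0.0545) or by DESeq2 (0.141). Marker sums of T and NK cells and of dendritic cells were also lower, whereas those of macrophages and B cells overlapped between the groups. B cell markers summed to 1.146 to 3.988 CPM under pressure and 1.199 to 1.586 CPM in controls, and none of the 5 listed was tested. T and NK cell markers summed to 2.87 to 4.09 CPM under pressure and 5.75 to 8.24 CPM in controls, and of 9 listed, 4 were tested, with none higher and 2 lower (Cd4 and Klrb1c). Among the untested ones, Ncr1 was at 0 in the pressure libraries. Dendritic cell markers summed to 27.0 to 30.1 CPM under pressure and 45.6 to 51.4 CPM in controls, and of 8 listed, 4 were tested, with Xcr1 higher and Clec9a lower. The part of these cells in the fall of Gpr183 was not tested. Gpr35, a metabolite receptor, had 15.3, 18.4 and 13.5 CPM under pressure and 13.6, 12.7 and 11.3 CPM in controls, with overlap. Its call (0.33 ± 0.13, edgeR adjusted p = 0.0462) was lost with library totals only (0.12, 0.449), with upper-quartile factors (0.22, 0.168), by limma-voom (0.0504), without the low-count filter (0.0557), with the replicate number as a block (0.0524), and without pressure replicate 1 or 2 (0.0597 and 0.209) or control replicate 1, 2 or 3 (0.0598, 0.0996 and 0.163).

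Adhesion receptors, which carry large extracellular domains and are cleaved near the membrane, had 12 tested genes of 26 listed: 2 higher, 4 lower and 6 not called. Adgrl2 (latrophilin 2) had 458, 428 and 286 CPM under pressure and 174, 157 and 193 CPM in controls. All pressure samples were above all controls although the third was well under the others (1.16 ± 0.15, edgeR adjusted p = 6.62e-05). Adgre4, a macrophage receptor of the F4/80 family, had 9.47, 9.79 and 8.02 CPM under pressure and 4.85, 3.95 and 4.23 CPM in controls, without overlap (1.07 ± 0.14, edgeR adjusted p = 7.73e-05). Its relative Adgre1 had 189, 197 and 162 CPM under pressure and 177, 158 and 169 CPM in controls. These overlapped (0.12 ± 0.09, edgeR adjusted p = 0.244), and Adgre1 was called higher without pressure replicate 3 (0.20, 0.0112) and was below 0 with library totals only (-0.09).

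The adhesion receptors that fell included abundant ones. Adgrf5 had 577, 562 and 450 CPM under pressure and 744, 671 and 774 CPM in controls. The groups did not overlap (-0.46 ± 0.10, edgeR adjusted p = 0.00175). Adgre5 (CD97), a leukocyte adhesion receptor, had 88.98, 89.5 and 73.8 CPM under pressure and 154, 136 and 144 CPM in controls. Its highest pressure value was well under its lowest control value (-0.78 ± 0.09, edgeR adjusted p = 3.35e-05). Adgra3 had 27.3, 32.6 and 29.6 CPM under pressure and 57.2, 59.5 and 55.3 CPM in controls, the largest fall in the class (-0.94 ± 0.09, edgeR adjusted p = 7.62e-06). Adgrg3 (GPR97), known from granulocytes and endothelium, had 107, 108 and 101 CPM under pressure and 124, 123 and 128 CPM in controls (-0.25 ± 0.07, edgeR adjusted p = 0.00961). Its difference was small, and its groups did not overlap.

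Other adhesion receptors of endothelium did not pass. Adgrl4, the most abundant gene of the set per kilobase, had 771, 810 and 662 CPM under pressure and 739, 677 and 724 CPM in controls, with overlap (0.07 ± 0.08, edgeR adjusted p = 0.481). It was called higher without pressure replicate 3 (0.15, 0.0336), and was below 0 with upper-quartile factors (-0.05) and library totals only (-0.15). Adgra2, which acts with Wnt ligands in brain vessels, had 46.7, 43.8 and 34.8 CPM under pressure and 42.5, 41.7 and 41.4 CPM in controls. Adgra2 and Adgrg1 were among the 3 tested genes with the smallest differences (0.00 ± 0.11 and 0.03 ± 0.15). Adgrl1 (latrophilin 1) had 35.9, 24.2 and 18.99 CPM under pressure and 26.5, 23.9 and 24.0 CPM in controls, so its pressure samples lay on both sides of the controls (0.10 ± 0.19). Without pressure replicate 3 Adgrl1 was called higher (0.28, edgeR adjusted p = 0.0341). Adgrg6, known from myelination by Schwann cells, was not called (-0.45 ± 0.25) except with library totals only (-0.67, 0.0289). A further list held 13 adhesion receptor symbols that the symbol rule does not take, namely earlier names and the Celsr genes. Of these, 3 are listed, and the 1 tested, Celsr3, was higher (1.13 ± 0.39, edgeR adjusted p = 0.0233).

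**Figure D3:**
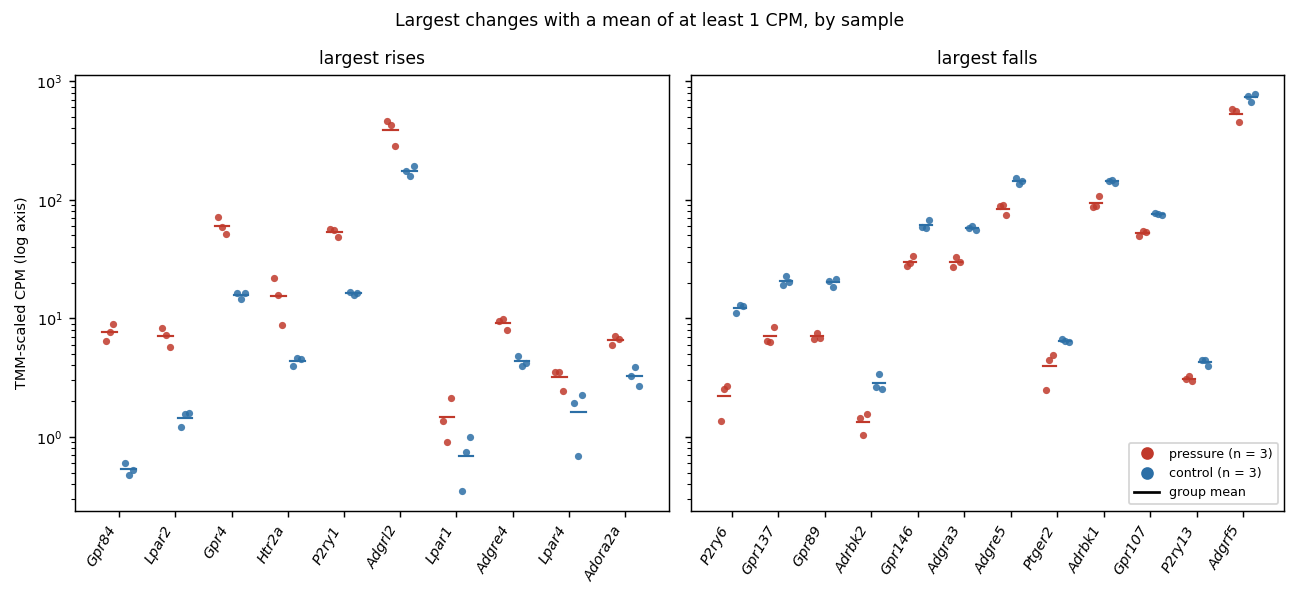
Level in each sample, in CPM on a log axis, of 10 of the 12 largest called rises and of the 12 largest called falls with a mean of at least 1 CPM; each point is 1 sample (pressure left in red, control right in blue), and bars are group means. The third pressure sample is the lowest of its group for Htr2a and Adgrl2, and Gpr84 spans 6.48 to 8.92 CPM under pressure and 0.480 to 0.600 CPM in controls.

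Numbered receptors outside these classes, mostly without a settled ligand, had 11 tested genes of 51 listed, 3 higher, 3 lower and 5 not called. Gpr3, which is active without a ligand and raises cyclic AMP, had 15.5, 18 and 9 counts under pressure and 0, 3 and 0 in controls. Its pooled ratio was 17.3 (exact 95% interval 5.53 to 87.1, counting error only; edgeR adjusted p = 3.90e-04). Without control replicate 1 the log2 fold change was 3.32 and without control replicate 2 it was 6.95, against 3.93 with all samples. Gpr62, an orphan, was also low, with 0.872, 0.972 and 1.15 CPM under pressure and 0.400, 0.533 and 0.396 CPM in controls (1.13 ± 0.32, edgeR adjusted p = 0.00855). Neither Gpr3 nor Gpr62 had values that overlapped between groups.

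Gpr146, a receptor known for its part in hepatic cholesterol handling, was the most abundant of the numbered receptors that fell. It had 27.9, 29.3 and 33.2 CPM under pressure and 59.0, 57.5 and 66.9 CPM in controls. The groups did not overlap (-1.02 ± 0.10, edgeR adjusted p = 7.43e-06). Gpr176, an orphan receptor of the brain's circadian clock, had 0.0623, 0.243 and 0.737 CPM under pressure and 1.40, 1.55 and 1.85 CPM in controls. The third pressure sample was the nearest to the controls, and the log2 fold change was -2.30 ± 0.49 (edgeR adjusted p = 0.00161) and -3.30 without pressure replicate 3. Gpr143, known from pigment cells, had 0.187, 0.729 and 0.328 CPM under pressure and 1.70, 0.907 and 1.19 CPM in controls (-1.57 ± 0.45, edgeR adjusted p = 0.00958). Without pressure replicate 2 Gpr143 was at -2.32, and without control replicate 1 it was not called (-1.28, 0.0505). Gpr157, an orphan, overlapped between the groups, with 48.5, 55.7 and 58.0 CPM under pressure and 55.8, 52.9 and 52.5 CPM in controls (0.01 ± 0.09). Gpr19 and Gpr63 were not called with all samples (-0.35 and 0.58) and were without pressure replicate 3 (-0.40, edgeR adjusted p = 0.0392, and 0.77, 0.0411). Gpr19 was also called lower with upper-quartile factors and library totals only (-0.46 and -0.56). Gpr39, which zinc activates, and Gpr160, an orphan, were not called (0.48 and -0.43), but Gpr160 was lower with library totals only (-0.64, 0.032).

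Multi-pass proteins that carry Gpr symbols but may not belong to the superfamily were lower where they passed. Of 7 tested, 5 were lower, 0 higher and 2 not called. The called share was 71.43%, near the 68.8% of all tested genes, of which 35.1% were called lower. The only alternative fits that called one of the 2 not called were those with upper-quartile factors or library totals only. Gpr89, an anion channel of the Golgi, had 6.73, 7.48 and 6.88 CPM under pressure and 20.6, 18.2 and 21.3 CPM in controls. Gpr137, a lysosomal membrane protein, had 6.42, 6.32 and 8.52 CPM under pressure and 19.2, 22.8 and 20.4 CPM in controls. Every pressure value of both genes was far below every control value, with log2 fold changes of -1.51 ± 0.12 and -1.57 ± 0.14 (edgeR adjusted p = 1.52e-06 and 3.78e-06). Gpr107, Gpr108 and Gpr180 fell by smaller steps (-0.52, -0.44 and -0.43). Gpr137b had 156, 176 and 157 CPM under pressure and 178, 164 and 178 CPM in controls (-0.09 ± 0.08), and its copy Gpr137b-ps had 179, 211 and 169 CPM under pressure and 198, 183 and 190 CPM in controls (-0.03 ± 0.09). Both copies are uncertain because reads may be split between them, and Gpr137b was called lower with upper-quartile factors and library totals only (-0.20, edgeR adjusted p = 0.0369, and -0.30, 0.00658) and Gpr137b-ps with library totals only (-0.24, 0.0338). Gpr155 was not called in any fit (0.34 ± 0.23).

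Among the 92 genes of the set that were not tested, a fit without the low-count filter called 8 of 60 higher and 1 lower. In the same fit, of all 4913 genes that the filter had left out, 7.39% were called higher and 2.81% lower. Adra2a, the Gi-coupled alpha-2A adrenergic receptor, had 15, 7 and 9 counts under pressure and none in any control. Set against 3 counts over the control group (0.0557 CPM), its pooled level was at least 12.5-fold higher. Htr2b, the serotonin 2B receptor, had 6, 14 and 10.5 counts under pressure and 5.5, 4.5 and 3 in controls and was called higher there. Adra2b, the alpha-2B receptor, had 4, 1.5 and 2 counts under pressure and 19, 9 and 4 in controls and was the 1 called lower. Gpr162 and Gpr55, a lysophospholipid receptor, had 44 and 39 counts over the 6 libraries and were not called. These genes lie at or below 1 CPM in every library, and Adra2a was picked after its values were seen. For the 31 genes with no count, 3 counts over a group correspond to 0.0671 CPM under pressure and 0.0557 CPM in controls, so lower levels were not detectable at this depth.

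The G protein subunits moved both ways, as did all tested genes (33.7% called higher and 35.1% lower). Among 12 tested alpha subunits, 4 were higher and 4 lower (median -0.18). Gnai2, a Gi subunit, averaged 217 ± 6.38 CPM under pressure and 382 ± 18.1 CPM in controls (-0.82 ± 0.07, edgeR adjusted p = 3.04e-06). Gnai1, another Gi subunit, rose by 1.21 ± 0.17 (9.13e-05) and Gna11, a Gq family subunit, by 0.54 ± 0.08 (1.68e-04), while Gnas, the Gs subunit, was not called, at 590 ± 16.8 CPM under pressure and 595 ± 15.3 CPM in controls (-0.01 ± 0.06). Of 11 beta and gamma subunits 2 were higher and 3 lower (median -0.06). The falls were those of Gngt2 (-1.42), Gnb4 (-0.999) and Gng11 (-0.61).

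Most receptor kinases and arrestins were lower. Of 13 tested receptor kinases and arrestins, 10 were lower and 3 higher, with a median log2 fold change of -0.84, against -0.01 for all genes. Adrbk1 and Adrbk2 are in this list and also among the lower genes of the symbol set. Over all tested genes 35.1% were called lower. Adrbk1 (now Grk2), the widely expressed receptor kinase, had 86.6, 89.3 and 107 CPM under pressure and 145, 146 and 139 CPM in controls. All pressure samples were lower (-0.61 ± 0.09, edgeR adjusted p = 1.63e-04), and Adrbk2 (Grk3) was lower too, at a low level (-1.11 ± 0.24, 0.00174). Arrb1, beta-arrestin 1, averaged 92.1 ± 5.18 CPM under pressure and 153 ± 8.29 CPM in controls (-0.73 ± 0.08, edgeR adjusted p = 1.68e-05), and Arrb2 fell by 0.88. The 3 that rose were the kinase Grk5 (1.15 ± 0.09, edgeR adjusted p = 1.45e-06), the alpha-arrestin Arrdc4 (1.47 ± 0.09, 4.84e-07) and Grk1, a kinase of photoreceptors (1.52). The list also holds relatives of the arrestins with other roles, among which Arrdc1 (-1.32, 4.14e-06), Arrdc2, Arrdc3 and Txnip were lower.

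Effectors moved both ways, as did all tested genes (33.7% called higher and 35.1% lower). Of 9 adenylyl cyclases and phospholipase C genes, 1 was higher and 3 lower (median -0.08). Plcb3, a Gq-activated phospholipase, averaged 14.4 ± 2.05 CPM under pressure and 66.3 ± 3.19 CPM in controls (-2.20 ± 0.11, edgeR adjusted p = 1.46e-07). Plcb2 fell by 2.38 (4.68e-06) and Plcb1 rose by 2.37 ± 0.22 (5.02e-06), reaching 4.13 CPM. Of 7 genes that act downstream of G12 and G13, 3 were higher and 2 lower (median -0.05). Akap13, an anchoring protein with exchange factor activity, rose by 1.38 ± 0.14 (edgeR adjusted p = 8.33e-06), and Arhgef1 and Arhgef11, which G12 and G13 activate, fell by 0.39 and 0.40 (0.00137 and 0.00303).

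Genes that cyclic AMP is known to induce or that act in that response were higher in 13 of 15 tested and lower in 2. Their median log2 fold change was 0.94. Over all tested genes 33.7% were called higher, and the median was -0.01. Pde4b, a cyclic AMP phosphodiesterase, averaged 440 ± 42.4 CPM under pressure and 143 ± 10.4 CPM in controls (1.63 ± 0.09, edgeR adjusted p = 2.52e-07). The transcription factor genes Fos and Atf3 rose by 2.34 ± 0.13 (2.74e-07) and 1.06 ± 0.08 (1.14e-06). The 2 that fell were the cyclic AMP response factor genes Creb1 (-1.01) and Crem (-0.44). Many genes of this list answer to other stimuli too, and no test of the list was made.

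**Figure D4:**
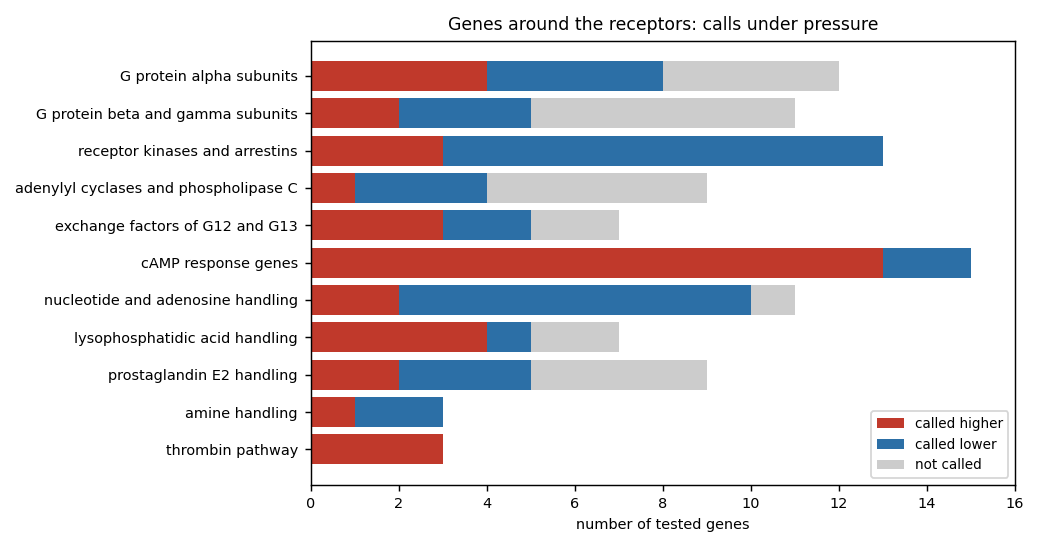
Number of tested genes called higher (red), called lower (blue) and called in neither direction (grey) under pressure in 11 lists of genes around the receptors; the horizontal axis counts genes. Cyclic AMP response genes are 13 higher of 15, and receptor kinases and arrestins are 10 lower of 13. Over all tested genes 33.7% were called higher and 35.1% lower.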

How the data were processed

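Polyadenylated RNA of 6 samples was sequenced from a stranded kit as single reads of 101 bases, per the labels' protocols. TopHat2 2.2.1, Cufflinks 2.2.1 and the build mm10 come from the submitters' processing notes. What each did, what counted the reads, and with which strand setting and annotation, is not given in the sources used here. Per symbol, the authors deposited an expected count (an estimate that need not be whole), with fractions in 18.22% to 21.67% of detected genes, so near-identical copies and overlapping genes are uncertain. Depth was 12922959 to 18655749 counts per library.

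Counts were rounded. filterByExpr (minimum count 10, total 15) kept 12892 genes with 99.94% of counts. The groups were compared by edgeR 4.0.16 (R 4.3.3) quasi-likelihood F-tests with TMM factors, two-sided, without covariates, Benjamini-Hochberg adjusted over all tested genes at 0.05. The code was tested on simulated counts. A standard error is the log2 fold change over the square root of F. Intervals are exact (scipy 1.17.1). Alternatives were other scalings, DESeq2 1.42.0, limma-voom (limma 3.58.1), other filters, a block, unrounded counts (added after seeing the data), an adjusted p of 0.01 and leaving out each sample. Positions and lengths are from GENCODE M21 (154 of 155 genes matched, 2 by a later symbol).

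The members and lists were chosen with earlier results of these data known. Named were the 12 largest rises and falls with a mean of at least 1 CPM, the most abundant of each class, the 5 most abundant per kilobase, calls lost under another scaling, the 3 smallest differences and the 5 untested genes with most counts; any other gene was named after its values were seen. In each list the 3 called genes with the smallest p were named. Some genes that these rules selected are not reported here.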

Additional observations from a re-analysis of the deposited data

How the results depend on the processing

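Over the alternatives, the called genes numbered 7372 to 9746 (8871 in the reported fit), and of the receptor set 14 to 24 were higher, 14 to 30 lower and 17 to 29 changed at least 2-fold, each within 1.5 times the reported count. Leaving out 1 sample gave 7981 to 9746 genes called, and 15 to 22 higher, 17 to 22 lower and 20 to 23 at least 2-fold in the set. In the reported fit and all 15 alternative fits, 28 genes of the set were called the same way, 12 higher and 16 lower. Another 3 (Gpr3, Gpr62 and Lpar5) were not tested in the fit that asked for a mean of at least 1 CPM and had the same call in the other 14. Genes with small differences changed sign: with library totals only Adgre1 (-0.093), Adgrl4 (-0.15), Gpr157 (-0.20), Adgra2 (-0.22), Adgrg1 (-0.19), Gpr65 (-0.16), Gpr132 (-0.032) and Adgrl1 (-0.12), and with upper-quartile factors Adgrl4 (-0.046), Gpr157 (-0.10), Adgra2 (-0.12), Adgrg1 (-0.09), Gpr65 (-0.06) and Adgrl1 (-0.023). Both settings lower the median of all genes (by 0.21 and 0.11). Adgra2 stood at -0.005 with limma-voom and -0.019 without the low-count filter, where Gpr157 stood at -0.011. Leaving out 1 sample gave ranges of -0.128 to 0.039 for Gpr137b-ps, -0.041 to 0.083 for Gpr157, -0.084 to 0.115 for Adgra2, -0.074 to 0.101 for Adgrg1, -0.19 to 0.276 for Adgrl1, -0.183 to 0.186 for F2rl3, -0.352 to 0.064 for P2ry14 and -0.057 to 0.174 for Gpr65. The cause of these changes was not tested.

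No pairing by replicate number was seen. Deviations of same-numbered samples from their group means correlated at 0.17, -0.30 and -0.18, and not every sample correlated best with its own number. With 3 samples per group, these correlations cannot exclude that samples were paired by number. With the number as a block 8384 genes were called, and in the set 16 were higher, 20 lower and 21 changed at least 2-fold, with Adgra2 at -0.009. Depth limits genes under about 1 CPM, where a group difference rests on few counts.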
